A study of Mus musculus with 2 samples.

Results

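Liver sinusoidal endothelial genes were examined in 2 RNA-seq libraries of mouse liver. The 10 genes were matched by mouse gene symbol, and all 10 were found among the 52636 named genes of the count tables. Each had at least 105 counts over both libraries, so none was lost to the floor of 20 counts that 14433 genes passed. They form 3 roles. Stab1, Stab2, Lyve1, Clec4g and Fcgr2b are scavenger and endocytic receptors, Kdr and Pecam1 are vascular surface receptors, and Bmp2, Wnt2 and Rspo3 are secreted angiocrine factors. The question was how the receptors compared with the angiocrine factors between the genotypes.

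Both libraries came from C57BL/6 mice of 8 weeks on normal chow, and each was made from liver RNA of 4 mice pooled before sequencing. The mice of the library labelled flox were Mettl3 flox/flox, with no Cre named. The mice of the library labelled HKO were Mettl3 flox/flox and also carried Alb-Cre+/-, so that the floxed exons 2 and 3 of the m6A methyltransferase gene Mettl3 are removed where the albumin promoter is active, which is in hepatocytes. Endothelial cells of these livers are not the cells that Alb-Cre targets, and the effect of the deletion cannot be told apart from that of carrying Cre. As each genotype has 1 pool, no difference has a replicate check. All intervals below are 95% intervals that cover counting error alone, and every difference describes these 2 libraries, named by their labels. Pairs of counts are given with flox first.

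The named genes had 21457504 counts for the label flox and 18438807 for the label HKO. Mettl3 (chromosome 14) had 156 and 220 counts, a log2 ratio of 0.45 (0.15 to 0.75), which goes against the label. However, reads from exons outside the deletion and from other cells also count, and 18.4% of its exonic bases lie in another annotated gene. Every ratio puts the library labelled HKO over that labelled flox after TMM scaling, which sets the bulk of genes level. With total counts in place of TMM factors every log2 ratio is 0.27 higher, so directions that flip with the scaling are named as such. The 6 hepatocyte markers summed to 94725 and 72873 CPM, CPM being counts relative to the library's total of named counts, and markers of Kupffer cells and macrophages are given beside the receptors.

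Sinusoidal endothelial cells line the capillaries of the liver. They have pores and no complete basement membrane, and they clear waste macromolecules and small immune complexes from blood through scavenger receptors, lectins and Fc receptors. They also instruct their neighbours. BMP2 and BMP6 from these cells act on hepatocytes to raise hepcidin, the hormone that limits the entry of iron into blood, and WNT2, WNT9B and R-spondin 3 from endothelium around the central vein maintain the pericentral programme of hepatocytes.

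The promoters of 6 of the 10 genes were in the RefSeq table of build GRCm38.p6, which runs from 250 bases before each start to 50 bases after it. The 4 windows below are those of Stab1, Stab2 and Wnt2, the genes with the lowest ratios among the 6, and of Kdr, the single one of the 6 with a match to a searched motif. They were searched on both strands for the ETS core CCGGAA and for the GATA motif AGATAA, which do not overlap each other. Endothelial transcription factors of the ETS and GATA families bind such motifs. Capitals mark the match.
Stab1 (chr14:31168592-31168891, minus strand): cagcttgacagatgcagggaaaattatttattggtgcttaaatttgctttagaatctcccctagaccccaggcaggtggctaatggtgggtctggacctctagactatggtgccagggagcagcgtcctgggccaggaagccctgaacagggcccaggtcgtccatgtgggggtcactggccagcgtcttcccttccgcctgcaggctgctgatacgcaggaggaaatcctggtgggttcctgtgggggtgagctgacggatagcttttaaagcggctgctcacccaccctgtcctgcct
Stab2 (chr10:87007893-87008192, minus strand): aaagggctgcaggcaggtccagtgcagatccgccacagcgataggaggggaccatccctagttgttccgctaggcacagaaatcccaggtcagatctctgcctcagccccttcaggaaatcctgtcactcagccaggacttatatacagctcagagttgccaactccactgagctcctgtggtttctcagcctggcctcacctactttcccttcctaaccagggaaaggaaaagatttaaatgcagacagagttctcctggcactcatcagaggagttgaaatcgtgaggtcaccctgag
Wnt2 (chr6:18030396-18030695, minus strand): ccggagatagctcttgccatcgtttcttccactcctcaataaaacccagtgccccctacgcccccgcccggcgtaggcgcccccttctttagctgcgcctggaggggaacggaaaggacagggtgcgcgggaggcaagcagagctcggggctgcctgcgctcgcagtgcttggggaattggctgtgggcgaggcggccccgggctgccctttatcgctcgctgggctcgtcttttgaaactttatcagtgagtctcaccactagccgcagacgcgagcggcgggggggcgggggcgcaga
Kdr (chr5:75978406-75978705, minus strand): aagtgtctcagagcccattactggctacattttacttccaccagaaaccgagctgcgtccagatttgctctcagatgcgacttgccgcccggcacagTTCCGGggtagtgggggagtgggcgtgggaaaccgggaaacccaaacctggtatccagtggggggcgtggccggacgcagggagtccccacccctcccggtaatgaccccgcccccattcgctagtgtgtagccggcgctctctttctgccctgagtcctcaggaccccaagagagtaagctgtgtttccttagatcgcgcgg
The match in Kdr is CCGGAA on the strand opposite to the gene, 153 bases before the start. Among all 32851 promoter windows of this length, 14.9% held CCGGAA and 11.2% held AGATAA, beside 1 and 0 of these 6 windows. The Wnt2 window was the richest in G and C of the 6, at 65.7%, and that of Fcgr2b the poorest, at 48%.

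Per unit of length the receptors stood above Wnt2 and Rspo3 in both libraries, while Bmp2 lay among them, below Clec4g and Stab2 and above Pecam1. In CPM per kilobase of exon, Clec4g had the highest level, 15.2 in the library labelled flox and 15.3 in that labelled HKO. Stab2 came next with 11.1 and 10.5. Counting intervals kept Clec4g apart from Stab2, and Stab2 apart from the gene below it, in both libraries, the latter by a narrow margin in the library labelled HKO. In the library labelled flox Stab1 (8.46), Bmp2 (8.04), Lyve1 (7.65), Kdr (7.31) and Fcgr2b (6.85) followed, and each overlapped its neighbour in that order. In the library labelled HKO Lyve1 (9.16) had an interval just above that of Fcgr2b (7.80), which was followed by Kdr (7.45), Stab1 (7.14) and Bmp2 (7.09) with overlapping intervals. Pecam1 had 3.12 and 3.91. Wnt2 and Rspo3 were lowest and overlapped each other in both libraries, with Wnt2 at 1.41 and 0.890 and Rspo3 at 0.965 and 1.14. Stab1 thus took place 3 of 10 in the library labelled flox and place 6 in that labelled HKO. The plot of levels by gene shows these positions.

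**Figure D1:**
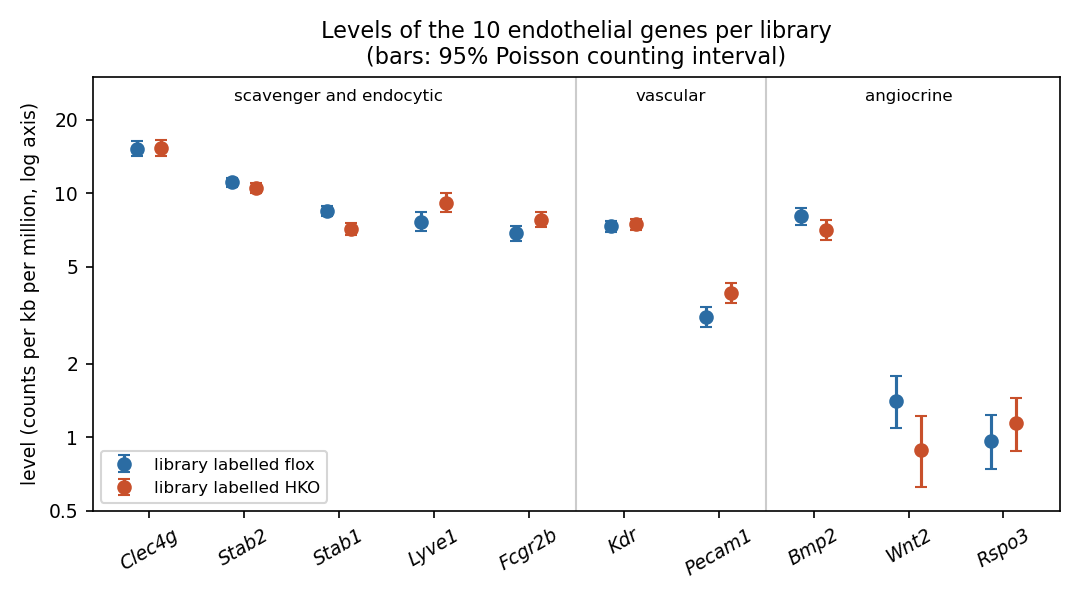
Level of each of the 10 genes as CPM per kilobase of exon, on a log axis, in the library labelled flox (blue) and the library labelled HKO (orange), with 95% Poisson counting intervals. Clec4g is highest at 15.2 and 15.3, and Wnt2 and Rspo3 are lowest, between 0.890 and 1.41.

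None of the 10 genes differed 2-fold between the libraries, a limit that 5.74% of the 14433 tested genes passed towards the library labelled HKO and 4.66% towards the library labelled flox. With total counts the split of all genes past 2-fold is 1504 higher and 409 lower, beside 828 and 672 with TMM. By the looser mark of a counting interval that lies wholly on 1 side of equality, 6 of the 10 were lower and 0 higher under the label HKO, beside 27.7% lower and 28.3% higher among all tested genes. Of the 9550 tested genes whose counts lay within the range of the members, 26.5% were lower and 33.5% higher by that mark. The median log2 ratio of the 10 was −0.25, against 0.01 for all tested genes, whose quartiles were −0.31 and 0.37. With total counts the members' median becomes 0.016 and that of all tested genes 0.28, and 3 members are then lower and 3 higher by the interval mark, beside 13.2% lower and 49.2% higher among all tested genes. Summed over the 10 genes the counts were 8669 and 7328, or 404.0 and 397.4 CPM, and on the TMM scale the sum was 1.22-fold lower (1.19 to 1.26). Both the size of this difference and whether there is one depend on the scaling, as the CPM sums, which use total counts, were nearly level. In whole liver the number of endothelial cells and the RNA per endothelial cell cannot be told apart.

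Only Stab1, Bmp2 and Wnt2 had intervals below equality under all 6 scalings run. With total counts Bmp2 barely did, with an upper log2 bound of −0.0037, beside −0.061 for Wnt2 and −0.14 for Stab1. Stab2 did under 5, its interval including equality with total counts. Clec4g and Kdr also did under 5, but their direction flipped with total counts, to log2 ratios of 0.0048 and 0.027. Lyve1 and Pecam1 had intervals above equality with total counts and included it under the others. For Fcgr2b the interval lay above equality with total counts and below it with upper-quartile factors. Rspo3 included equality throughout.

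The scavenger receptors did not move as a block. Stab1 (ENSMUSG00000042286, chr14:31139013-31168641, minus strand) encodes stabilin-1, a large receptor that takes up acetylated low-density lipoprotein and matrix fragments and is also made by macrophages. It had 1867 counts for flox and 1354 for HKO, 1.43-fold lower (1.33 to 1.53). Stab2 (ENSMUSG00000035459, chr10:86841198-87008025, minus strand) encodes stabilin-2, the main hyaluronan clearance receptor of these cells. Its counts were 2088 and 1697, 1.27-fold lower (1.19 to 1.36). Stab1 was lower by a little more than Stab2, since the count of Stab1 was 89.4% of that of Stab2 in the library labelled flox and 79.8% in that labelled HKO, a ratio of ratios of 0.892 (0.811 to 0.982). That comparison is made within each library and does not depend on the scaling.

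Clec4g (ENSMUSG00000074491, chr8:3707064-3720651, minus strand) encodes LSECtin, a C-type lectin of sinusoidal endothelium. It had 805 and 694 counts, 1.20-fold lower (1.08 to 1.33), and a log2 ratio of −0.26 that becomes 0.0048 with total counts. Of its exonic bases 5.93% lie in another annotated gene. Fcgr2b (ENSMUSG00000026656, chr1:170958617-170976547, minus strand) encodes the inhibitory Fc receptor that takes up small immune complexes in the sinusoid, and B cells and macrophages make it too. Its counts of 851 and 833 gave a log2 ratio of −0.08 (−0.22 to 0.06), and 4.30% of its 100-base words occur in transcripts of other genes. Lyve1 (ENSMUSG00000030787, chr7:110850607-110863239, minus strand) encodes a hyaluronan receptor shared with lymphatic vessels and some macrophages. Its counts were 479 and 493, a log2 ratio of −0.0065 (−0.19 to 0.18). Both stabilins together were lower against Clec4g, Fcgr2b and Lyve1 together, with 3955 against 2135 counts for flox and 3051 against 2020 for HKO, a ratio of ratios of 0.815 (0.754 to 0.881). As the stabilins had the lowest ratios of these receptors, that split follows the values and its interval gives no separate support.

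Macrophage markers lay on the other side of equality from the stabilins. All 14 Kupffer cell and macrophage markers had ratios above equality, and none was at 0. Intervals lay above equality for 13, beside 28.3% of all tested genes. Their sum was 554.9 CPM in the library labelled flox and 1022.2 CPM in that labelled HKO, 1.53-fold higher (1.497 to 1.57) on the TMM scale. Marco, Cd68, Mpeg1 and Vsig4 were past 2-fold higher, beside 5.74% of all tested genes. Clec4f, a defining marker of Kupffer cells, had 2260 and 2851 counts. The mannose receptor Mrc1, made by sinusoidal endothelium and macrophages alike, was 1.29-fold higher (833 and 1107 counts, 1.17 to 1.41). B cell markers were scarce, with all 4 above 0 and a sum of 2.80 and 4.45 CPM, and Pdpn of lymphatic endothelium was at 0 in both libraries. The part of macrophages in the levels of Stab1, Lyve1, Fcgr2b and Mrc1 was not tested.

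Of the vascular surface receptors Kdr was slightly lower on the TMM scale, and the interval of Pecam1 included equality. Kdr (ENSMUSG00000062960, chr5:75932827-75978458, minus strand) encodes VEGF receptor 2, which carries the main growth signal of VEGF-A in endothelium. It had 1417 and 1241 counts, 1.18-fold lower (1.09 to 1.27), and its log2 ratio of −0.24 becomes 0.027 with total counts. Pecam1 (ENSMUSG00000020717, chr11:106654217-106750628, minus strand) encodes CD31, an adhesion molecule of endothelial junctions, platelets and leukocytes. Its counts were 417 and 449, a log2 ratio of 0.06 (−0.14 to 0.25). Against the 5 scavenger receptors the summed pair was higher, with 30.1% of their summed count in the library labelled flox and 33.3% in that labelled HKO, a ratio of ratios of 1.11 (1.03 to 1.19). Taken singly, Kdr was higher against Stab1 and lower against Lyve1, and its intervals with Stab2, Clec4g and Fcgr2b included equality. Pecam1 was higher against Stab1, Stab2 and Clec4g, and its intervals with Lyve1 and Fcgr2b included equality.

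Among the angiocrine factors the library labelled HKO had less Bmp2 and Wnt2, and the interval of Rspo3 included equality. Bmp2 (ENSMUSG00000027358, chr2:133552159-133562885, plus strand) had 613 and 465 counts, 1.36-fold lower (1.21 to 1.54). Wnt2 (ENSMUSG00000010797, chr6:17988940-18030585, minus strand) encodes a ligand that signals through beta-catenin. With 68 and 37 counts it was 1.89-fold lower (1.26 to 2.92), the largest point estimate of the 10 and the least precise of those called lower. Within the libraries its pair intervals with Stab1, Stab2 and Bmp2 included equality. Rspo3 (ENSMUSG00000019880, chr10:29452416-29535867, minus strand) encodes R-spondin 3, which amplifies WNT signals by keeping FZD receptors on the cell surface. It had 64 and 65 counts, a log2 ratio of −0.03 (−0.55 to 0.50), so at this depth neither a value 1.41-fold higher nor one 1.46-fold lower lay outside the counting interval. Of its exonic bases 13.1% lie in another annotated gene, and whether the counting used strand is not stated. Wnt2 and Rspo3 were about equal by count with the label flox, whereas Wnt2 had 56.9% of the counts of Rspo3 in the library labelled HKO, a ratio of ratios of 0.537 (0.305 to 0.939).

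**Figure D2:**
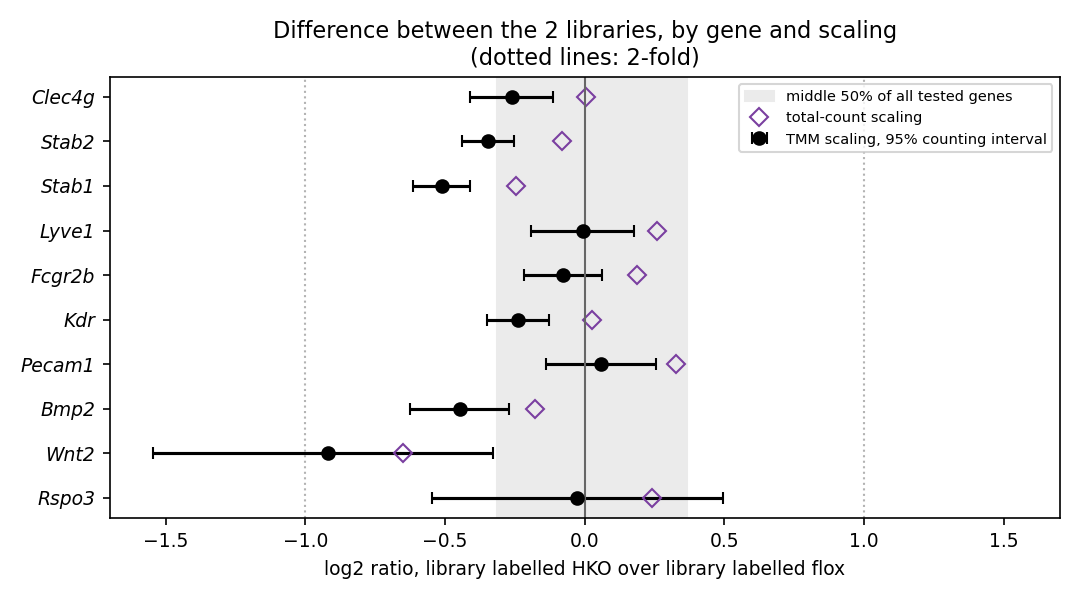
Log2 ratio, library labelled HKO over that labelled flox, for each of the 10 genes, with TMM scaling (black points, 95% counting intervals) and with total counts (open diamonds). The grey band is the middle 50% of the 14433 tested genes and the dotted lines mark 2-fold. Stab1, Stab2, Bmp2 and Wnt2 lie below equality on both scales, although Stab2, at −0.080 with total counts, has an interval there that includes equality. Clec4g and Kdr, at −0.26 and −0.24 with TMM, move to 0.0048 and 0.027 with total counts.

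Compared within each library, a difference between the angiocrine factors and the scavenger receptors was not resolved. The 3 factors together had 745 counts beside 6090 for the 5 receptors in the library labelled flox, or 12.2%. In the library labelled HKO they had 567 beside 5071, or 11.2%. The ratio of ratios was 0.914 (0.813 to 1.03), an interval that includes equality and leaves room for a difference of either sign. Bmp2 made up most of the factors' counts, and its own comparison with the receptors gave 0.911 (0.801 to 1.04). Wnt2 was lower against the receptors, at 0.653 (0.425 to 0.991), and Rspo3 gave 1.22 (0.848 to 1.75). Against Kdr and Pecam1 together Bmp2 gave 0.823 (0.716 to 0.947), Wnt2 0.591 (0.382 to 0.899) and Rspo3 1.10 (0.763 to 1.59). Bmp2 was thus lower relative to the summed vascular receptors, whereas its interval against the scavenger receptors included equality, and these intervals overlap. Taken singly, Pecam1 over Bmp2 gave 1.42 (1.18 to 1.71). Kdr over Bmp2 gave 1.15 (0.999 to 1.34), an interval that includes equality. The value depends on which receptors serve as the reference. The stabilins had the lowest ratios of the 5 receptors, so leaving them out had to lower it. The ratio of ratios for the 3 factors then became −0.31 on the log2 scale (−0.497 to −0.13), in place of −0.13. Fcgr2b and Lyve1 had the highest ratios, so leaving those out instead had to raise it, to −0.048 (−0.22 to 0.12). With Bmp6 and Wnt9b added to the factors it became −0.0054 (−0.15 to 0.14). Over all 45 pairs of members, the within-library comparison excluded equality in 22, of which 5 were among the 15 pairs of an angiocrine factor with a scavenger receptor. Stab1, Lyve1, Pecam1 and Wnt2 took part in 6 such pairs each, and Rspo3 in 1. The intervals of the 45 pairs were not adjusted for their number. Pairs of other genes were not counted, so the 22 have no background share beside them.

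**Figure D3:**
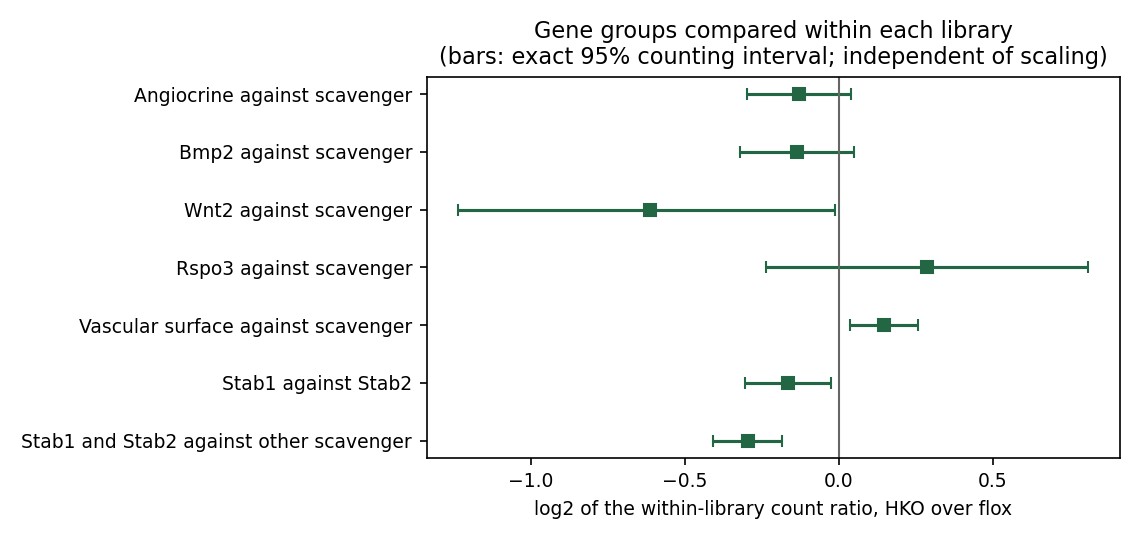
Count ratio of 1 gene group to another within each library, compared as log2 of the value in the library labelled HKO over that in the library labelled flox, with exact 95% counting intervals. The combined angiocrine factors and Bmp2 include equality, Wnt2 lies just below it with an upper bound of −0.013, and both stabilins were lower against the other 3 scavenger receptors, at −0.29. The stabilins had the lowest ratios of these receptors, so that split follows the values.

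Other genes of liver endothelium gave a mixed picture. Of 53 endothelial genes from 6 lists, 2 were past 2-fold higher and 0 lower, beside 5.74% and 4.66% of all tested genes. Intervals lay above equality for 10 and below it for 18, beside 28.3% and 27.7% of all tested genes. Those shares also stand beside the counts of the lists that follow. The median log2 ratio of the 53 was −0.07, or 0.20 with total counts. The 7 further sinusoidal genes had a median of −0.38 (−0.11 with total counts), with intervals below equality for 5 and above it for 1, Mrc1. Ehd3, an endocytic recycling protein, was the most abundant of them in counts and was 1.30-fold lower (1916 and 1524, 1.21 to 1.39). Named here after their values were seen, Scarf1, a scavenger receptor of endothelium, was 1.82-fold lower (380 and 216, 1.53 to 2.16), and the secreted nuclease Dnase1l3 was 1.62-fold lower (881 and 562, 1.46 to 1.80). Both were lower under total counts as well, with log2 ratios of −0.59 and −0.43. For the clotting gene F8 the counts were 273 and 316, with an interval of 0.949 to 1.32.

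The receptors of the VEGF and TIE families that work beside Kdr were split, with 5 of 11 below equality and 3 above by their intervals and a median of −0.13 that becomes 0.13 with total counts. Flt1, the decoy receptor for VEGF-A, had 348 and 328 counts and Tek, the receptor for angiopoietins, 316 and 359, both with intervals that included equality. Endoglin (Eng), a BMP co-receptor, was 1.33-fold lower (1710 and 1329, 1.24 to 1.43) and Nrp1, a VEGF co-receptor found on several cell types, 1.52-fold higher (1235 and 1946, 1.42 to 1.64). Junction and surface genes had 4 of 12 below and 2 above, with Ptprb 1.21-fold lower (1805 and 1548, 1.13 to 1.29) and Cdh5, the cadherin of endothelial junctions, at 521 and 586 counts with an interval of 0.965 to 1.23. Their median of −0.11 becomes 0.15 with total counts. Of 9 endothelial transcription factors 2 were below and 2 above. Maf, which takes part in sinusoidal identity in mouse, was 1.22-fold lower (883 and 751, 1.10 to 1.34) with a log2 ratio of −0.015 under total counts, and the flow-responsive Klf2 was 1.43-fold higher (597 and 883, 1.29 to 1.59). Of 5 genes of continuous and large-vessel endothelium 1 had an interval below equality and 1 above. Cd34, a sialomucin of vessels and progenitors, had 45 and 44 counts with an interval of 0.610 to 1.47. The gene above was Ly6a, also found on leukocytes and progenitors, which was 2.02-fold higher (105 and 220, 1.60 to 2.58).

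Angpt2, an antagonist of TEK that endothelium releases, stood furthest apart of the 53. It had 12 and 68 counts, 5.30-fold higher in the library labelled HKO (2.94 to 11.1). Bmp6, the partner of Bmp2 in hepcidin control, had 184 and 188 counts (log2 ratio −0.02, −0.32 to 0.28, and 0.25 with total counts), and Wnt9b, the partner of Wnt2 at the central vein, 39 and 48 (log2 ratio 0.25, −0.39 to 0.90). Of 5 ligands of Kdr, Tek and their relatives 4 had enough counts. Vegfa, which hepatocytes also make, was 1.57-fold lower (6924 and 4571, 1.51 to 1.63), Vegfc 2.11-fold higher (62 and 136, 1.56 to 2.91) and Angpt1 2.21-fold higher (12 and 28, 1.11 to 4.87), the last with 14.2% of exonic bases in another gene.

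Genes that respond to BMP signals did not share the direction of Bmp2. Of 8 BMP target genes 4 had intervals above equality in the library labelled HKO and 0 below, with a median of 0.25. Hepcidin (Hamp) was 2.27-fold higher (6226 and 14587, 2.20 to 2.33) and Id3, an inhibitor of bHLH factors, 2.08-fold higher (586 and 1263, 1.89 to 2.30). Of 9 receptors and co-receptors 6 were above and 2 below, with a median of 0.27. Both that were lower are iron regulators made by hepatocytes and were the most abundant in counts, Tfr2, 1.76-fold lower (18548 and 10912, 1.72 to 1.80), and Tmprss6, which cleaves the co-receptor hemojuvelin, 1.51-fold lower (18460 and 12620, 1.48 to 1.55). The 6 hepatocyte markers had a median of −0.74, or −0.48 with total counts, and their part in these values was not tested.

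Genes downstream of WNT2 and R-spondin 3 went both ways. Of 12 WNT target and pericentral genes 11 had enough counts, and of these 8 had intervals below equality and 2 above, with a median of −0.56, or −0.30 with total counts. Hepatocytes make most of these genes, and all 6 hepatocyte markers also had intervals below equality, with a median of −0.74, or −0.48 with total counts, where Apoa1 alone turns positive at 0.24. Their part in the pericentral values was not tested. Glul, glutamine synthetase of the cells next to the central vein, was 1.98-fold lower (19958 and 10416, 1.93 to 2.03). Lhpp was 2.35-fold lower (1501 and 660, 2.14 to 2.58) and Oat 2.03-fold lower (9445 and 4807, 1.96 to 2.10), and both fall short of 2-fold with total counts. The WNT targets Tbx3 and Sp5 were 2.35-fold (239 and 582, 2.02 to 2.75) and 2.27-fold higher (27 and 64, 1.44 to 3.74). Axin2, a feedback target of beta-catenin in most tissues, had 88 and 100 counts, a log2 ratio of 0.14 (−0.29 to 0.57). Of 8 tested receptors and regulators 3 were above and 2 below, with a median of 0.023. Lgr4, the main R-spondin receptor of hepatocytes, had 1142 and 1219 counts (log2 ratio 0.05, −0.07 to 0.16), and Lgr5, itself a pericentral WNT target, 129 and 96, 1.39-fold lower (1.06 to 1.83). The WNT co-receptors Lrp5 (3031 and 3132) and Lrp6 (1844 and 1856) had intervals that included equality on the TMM scale, with log2 ratios of 0.27 and 0.23 under total counts. Fzd6 was listed at 0 in both libraries.

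**Figure D4:**
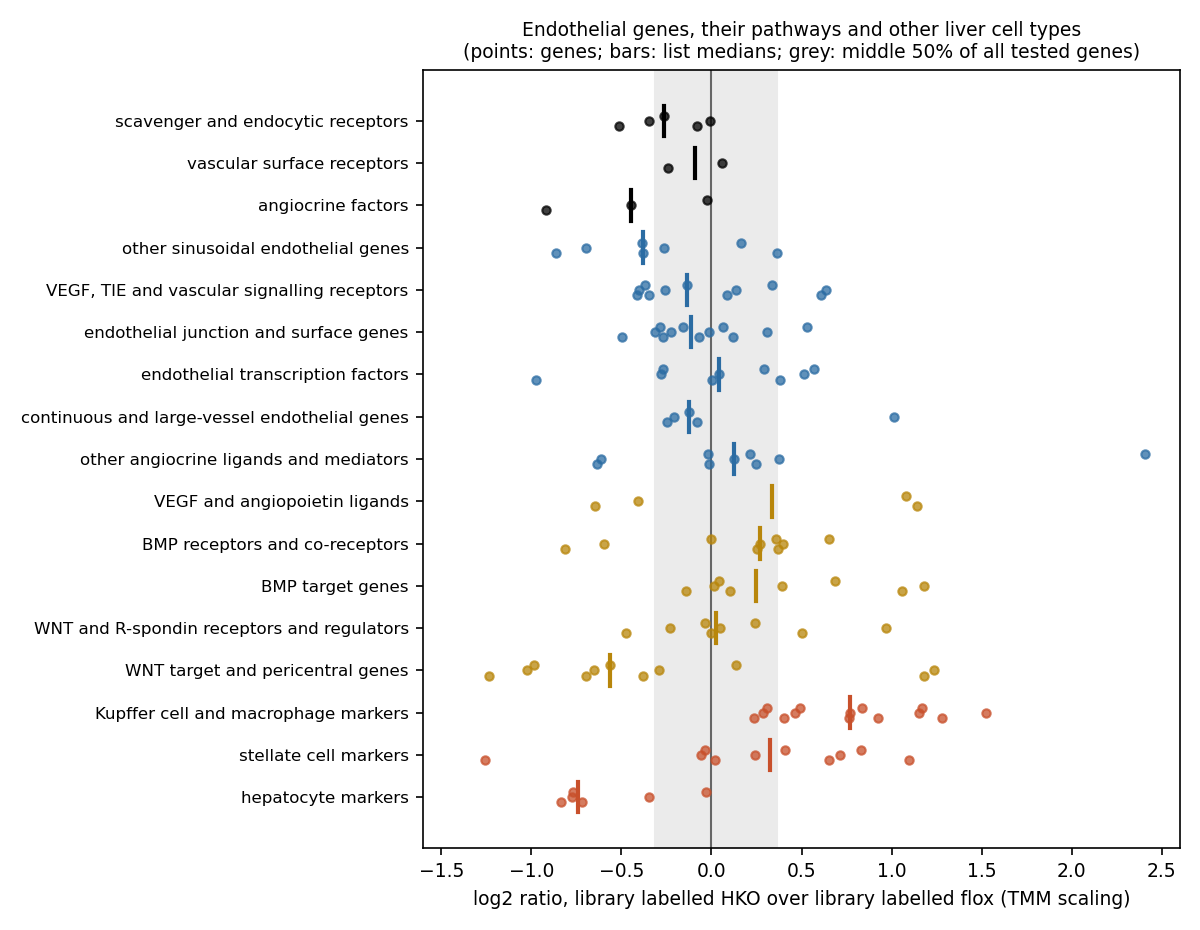
Log2 ratio, library labelled HKO over that labelled flox, with TMM scaling for each gene with at least 20 counts (points), by list, with list medians (vertical bars) and the middle 50% of all tested genes (grey). Black lists are the 10 genes by role, blue lists other endothelial genes, gold lists the pathways of the ligands and receptors, and orange lists other liver cell types. The macrophage list lies furthest to the right, with a median of 0.77, and the hepatocyte list furthest to the left, with a median of −0.74, while the 3 roles have medians of −0.26, −0.09 and −0.45, which become 0.0048, 0.18 and −0.18 with total counts.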

How the data were processed

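RNA from livers of 4 mice per genotype was pooled before library preparation, and 1 paired-end library was sequenced per pool. The authors deposited whole-number read counts for each gene, which were not normalized. The submitters' processing notes name TopHat2, HTSeq 0.6.1 and GRCm38, whereas the methods of the paper name Hisat2, and which aligner made the tables could not be told from them. The strand setting is not stated, and no molecular tags are described, so PCR copies count as reads.

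Each table held 52947 rows, of which 311 unannotated loci were left out, holding 0.328% of the counts for flox and 0.261% for HKO. GENCODE M21 names, positions and exon lengths (GRCm38) matched 52489 identifiers, and 147 did not match. Hjv is listed there as Hfe2. One count equals 0.0466 and 0.0542 CPM.

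TMM, upper-quartile and DESeq2 factors came from edgeR 4.0.16 and DESeq2 1.42.0 in R 4.3.3, used for scaling alone. Log2 ratios carry a prior of 0.5 counts, and intervals are exact binomial intervals of the counts without the prior. Ratios of ratios carry exact conditional intervals. A gene was tested at 20 counts or more over both libraries and counted as past 2-fold when its interval also excluded equality. No p-value is given. The interval calculations were tested on simulated data. Calculations used Python 3.11.15, SciPy 1.17.1 and matplotlib 3.10.9.

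The members and the 21 gene lists were chosen with earlier results of these data known. Genes outside the members are named when past 2-fold (up to 4 a list), otherwise as the 2 most abundant of their list, together with fixed partners of the members. Scarf1, Dnase1l3, F8, Clec4f, Pdpn and Fzd6 are named outside this rule. Alternatives covered scaling, prior, floor, gene type, fold limit and list composition.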

Additional observations from a re-analysis of the deposited data

How the results depend on the processing

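No member passed 2-fold under any scaling, prior, gene type or count floor tried, and with a limit of 1.5-fold 1 did, Wnt2. Total counts in place of TMM factors changed the most. The number of members with an interval below equality fell from 6 to 3 and the number above rose from 0 to 3, while over all tested genes the shares went from 27.7% to 13.2% below and from 28.3% to 49.2% above. The members' median log2 ratio became 0.016, and Clec4g and Kdr turned from −0.26 and −0.24 to 0.0048 and 0.027. The summed scavenger receptors then had a log2 ratio of −0.045 (−0.099 to 0.0086), an interval that includes equality, from −0.31. The angiocrine factors had −0.17 (−0.34 to −0.016), from −0.44. This follows from the shift of 0.27 that total counts apply to every gene. With upper-quartile factors the scavenger sum was −0.39, and relative to the median of 53 other endothelial genes it was −0.24. Left without Stab1 and Stab2 it was −0.13, and the angiocrine factors then stood at −0.31 against the remaining receptors, in place of −0.13 against all 5. The direction of both shifts follows from leaving out the receptors with the lowest ratios. Under DESeq2 size factors, upper-quartile factors, a prior of 2, protein-coding genes only and the endothelial reference, each of the 10 ratios moved by less than its counting error. Over all genes, those past 2-fold numbered 828 higher and 672 lower, 1504 and 409 with total counts, and 458 and 316 with a floor of 100 counts. Leaving Wnt2 out of the factors, an alternative added after the data were seen, gave −0.089 (−0.26 to 0.086). No paired analysis was possible because each genotype has 1 library. Depth limits Wnt2 and Rspo3 most, with 105 and 129 counts in all.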

Other observations

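Cells that neighbour the sinusoid differed among themselves. Of 10 stellate cell markers 6 had intervals above equality and 1 below, with a median log2 ratio of 0.32. Lrat, which stores vitamin A as retinyl ester, was 2.14-fold higher in the library labelled HKO (296 and 654 counts, 1.86 to 2.46), and the intermediate filament gene Des 2.39-fold lower (375 and 162, 1.99 to 2.90), or a log2 ratio of −0.99 with total counts. The stellate markers summed to 271.9 and 426.9 CPM. Bile duct genes were split as well. The keratin genes Krt19 (731 and 165, 3.86 to 5.46) and Krt7 (100 and 38, 1.86 to 4.06) were 4.57-fold and 2.70-fold lower, and the transcription factor gene Sox9 was 4.14-fold higher (94 and 404, 3.31 to 5.26).

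Platelet markers, which bear on Pecam1, summed to 218 and 132 counts, a log2 ratio of −0.77 (−1.09 to −0.45), with Itga2b at 173 and 96 and Pf4 at 23 and 16 counts. B cell markers summed to 60 and 82 counts with an interval of 0.936 to 1.88, Cd79a having 26 and 24 counts and Cd79b 14 and 27. Of the lymphatic markers Prox1, which hepatocytes also make, had 1440 and 2249 counts and Mmrn1 15 and 10. Among hepatocyte markers Alb, albumin, had 1460053 and 886277 counts, a log2 ratio of −0.77. Apoa1 had 221494 and 224315 counts, and its log2 ratio of −0.03 becomes 0.24 with total counts. The part of these cell types in the endothelial values was not tested.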
